A study of Mus musculus with 18 samples.

Results

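The Oas family encodes 2'-5' oligoadenylate synthetases and their close relatives, and 8 of its genes, Oas1a, Oas1b, Oas1c, Oas1g, Oas2, Oas3, Oasl1 and Oasl2, were followed here among the 55414 genes counted. The genes were taken by name, with symbols matched to the gene identifiers of the count table. All 8 had enough counts to be tested. RNA came from C2C12 cells, a mouse skeletal muscle line, transfected at confluence with siRNA pools and used after 6 days of differentiation into myotubes. The pools were a non-targeting control (siNTC), siErk3 against Erk3, an atypical MAP kinase encoded by Mapk6, and siMk5 against Mk5, a kinase that binds Erk3 and is encoded by Mapkapk5. Myotubes then spent 16 h in serum-free medium with 0.5 mM palmitic acid bound to albumin (PA) or with the albumin vehicle alone (BSA), a model of lipid overload. This made 6 groups of 3 libraries: siNTC BSA, siErk3 BSA, siMk5 BSA, siNTC PA, siErk3 PA and siMk5 PA. All are transient knockdowns in 1 cell line, and since the labels name no separate cultures, the p-values measure only the spread between libraries, which may be technical.

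Oligoadenylate synthetases bind double-stranded RNA and join ATP into short 2'-5' linked oligoadenylates (2-5A). These messengers set off the decay of RNA in the cell, as part of the defence against viruses. The genes are classical targets of interferon, whose receptors act through factors such as STAT2 and IRF9 on interferon-stimulated response elements (ISRE). Oas1 proteins carry a single synthetase unit and Oas2 and Oas3 several in tandem, whereas the Oasl proteins add ubiquitin-like domains. Oasl1 has no synthetase activity and holds back translation of Irf7, and Oasl2 keeps the activity.

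On mouse chromosome 5 the family lies in 2 clusters (GRCm39). Oas2 (120868398 to 120887918, minus strand), Oas3 (120891163 to 120915726, minus), Oas1c (120938259 to 120950579, minus), Oas1b (120950700 to 120962228, plus), Oas1g (121014205 to 121025676, minus) and Oas1a (121034319 to 121045584, minus) lie in the same cluster. This cluster of 191318 bases holds 10 family genes in all and ends with Oas1d at 121059715. Oasl2 (115034997 to 115050295, plus) and Oasl1 (115061299 to 115075974, plus) make up another of 40978 bases. Counts were taken over the exons of each gene. None of the 8 shares exonic bases with another gene on the same strand. The stretch before the annotated start is shown for Oas1b, Oas1g, Oas2 and Oas3, 4 of the 6 members in which the letters of an ISRE core (GAAA, any 2 bases, GAAA again, or on the other strand TTTC, any 2 bases, TTTC) were found, and for Oasl1, in which they were not, because the members differ in this feature and in the values that follow. Sequences come from GRCm39, read on the strand of the gene from 5′ to 3′, and stop before the outermost start of the gene in GENCODE M39; capitals mark the ISRE core.
Oas1b, chr5:120950583-120950699, plus strand: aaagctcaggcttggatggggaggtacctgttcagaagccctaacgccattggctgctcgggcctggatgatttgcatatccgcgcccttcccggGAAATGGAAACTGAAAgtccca
Oas1g, chr5:121025677-121025765, minus strand: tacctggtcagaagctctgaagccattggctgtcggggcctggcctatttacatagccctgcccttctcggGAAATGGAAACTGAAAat
Oas2, chr5:120887934-120888053, minus strand: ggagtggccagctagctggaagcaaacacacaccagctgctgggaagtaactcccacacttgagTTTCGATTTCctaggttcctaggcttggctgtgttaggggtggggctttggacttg
Oas3, chr5:120915730-120915849, minus strand: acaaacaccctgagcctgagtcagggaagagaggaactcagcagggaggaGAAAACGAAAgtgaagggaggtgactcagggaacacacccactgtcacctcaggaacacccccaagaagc
Oasl1, chr5:115061174-115061293, plus strand: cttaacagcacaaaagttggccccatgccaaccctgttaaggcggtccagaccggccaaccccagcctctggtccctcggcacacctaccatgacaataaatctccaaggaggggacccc

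Of the 8 members, 6 held the ISRE core on either strand between 200 bases before and 50 bases after the start of the canonical transcript, against 2.96% of 21757 protein-coding genes searched in the same way. The run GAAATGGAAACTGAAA, in which 2 cores overlap, stood in all 4 Oas1 members. With 1 as the first transcribed base and -1 as the base before it, it lay at -25 to -10 in Oas1b, at -49 to -34 in Oas1g and at 3 to 18 in Oas1a. The last, Oas1c, which starts 124 bases from Oas1b and is read in the opposite direction, has the very same bases as printed for Oas1b, seen from the other strand at -114 to -99. Oas2 and Oas3 had a single core each, at -56 to -47 and at -70 to -61. These letters were not in the windows of Oasl1 and Oasl2. The core of a gamma-activated site (TTCNNNGAA) was found in Oas1a alone among the members, as TTCAAAGAA at -76 to -68, and in 7.28% of the same protein-coding genes. The matches describe letters in the reference genome and no binding was measured. Their bearing on the values below was not tested. Oasl1, without a core, rose most with PA in siNTC (log2 difference 7.31), and Oas1c, with the run, rose least (1.93).

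The most alike members can lend each other reads. The coding sequences of Oas1a and Oas1g were identical at 96.7% of aligned bases, and 40.3% of the 100-base windows of the canonical Oas1a transcript also occur in Oas1g (38.2% in the other direction). The counting kept read pairs down to a mapping quality of 3, which need not remove a pair that fits both genes. Oas1a and Oas1g values are therefore given with their sum beside the other Oas1 members further on. The remaining 6 members shared no such window with any other annotated family member.

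Total counts per library ranged from 13041979 to 28496727 with a median of 22417470. The targeted Mapk6 mRNA was lower in siErk3 than in siNTC in BSA (mean 57.4 against 132.3 CPM, counts scaled to library size by TMM) and in PA (119.9 against 231.8 CPM). Mapkapk5 in siMk5 and siNTC read 1.63 and 2.46 CPM in BSA and 2.31 and 3.24 CPM in PA, and its differences did not pass the test (FDR 0.469 in both media). The study reports that Western blots showed both kinases to be silenced for these experiments. It also reports less Erk3 protein after Mk5 silencing, so the siMk5 groups need not have a control level of Erk3 protein. The summed level of 8 myotube markers was 8805 to 11740 CPM in all libraries; it was 10598 to 11740 CPM in siErk3 BSA against 9381 to 10049 CPM in siNTC BSA, and Myh8, Actn2 and Myh3 passed the test there. In PA it was 9717 to 10385 CPM in siErk3 against 8805 to 8981 CPM in siNTC, and Myh8 and Actn2 passed. These were 3 of the 8 markers in BSA and 2 in PA, against 0.588% and 0.432% of all genes called higher. The rise was not shared by every marker. Mean Tnnt3 was lower in siErk3 in BSA (832.4 against 926.0 CPM) and in PA (683.8 against 728.7 CPM), without a call. The summed level of 5 myoblast and cycling markers was 802 to 877 CPM in BSA and 329 to 436 CPM in PA. Macrophage markers summed to at most 2.7 CPM in any library, with Adgre1 at 0 counts in all 18 libraries; 0 of the 4 tested were called between siRNAs, and PA moved 1, lower in siNTC and siErk3 and another, higher, in siMk5. The share of counts on 18S ribosomal RNA ran from 1.5% to 12.9% and was highest in siMk5 BSA. The part that these differences play in the results below was not tested. In bulk RNA, fewer cells that express a gene and less RNA of it per cell cannot be told apart.

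Erk3 silencing stood above the control and PA above BSA in the summed level of the family. Levels summed over members and scaled per kilobase of exon were 2.40 ± 0.490 CPM per kb in siNTC BSA, 8.95 ± 3.03 in siErk3 BSA and 2.23 ± 0.210 in siMk5 BSA (mean ± SD, n = 3). In PA they were 53.2 ± 3.67 in siNTC, 86.0 ± 1.66 in siErk3 and 30.0 ± 5.12 in siMk5. From the top, the order was siErk3 PA, siNTC PA, siMk5 PA, siErk3 BSA, and then siNTC BSA and siMk5 BSA, whose libraries overlapped. Of the neighbours in this order, only siMk5 PA and siErk3 BSA were not set against each other in the fit. Their summed levels did not overlap, but the CPM of Oas2 (17.1 to 30.0 and 8.59 to 19.6) did. So did those of Oas1g (1.26 to 2.20 and 0.644 to 1.48) and Oas1c (0.186 to 0.360 and 0.107 to 0.338).

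**Figure D1:**
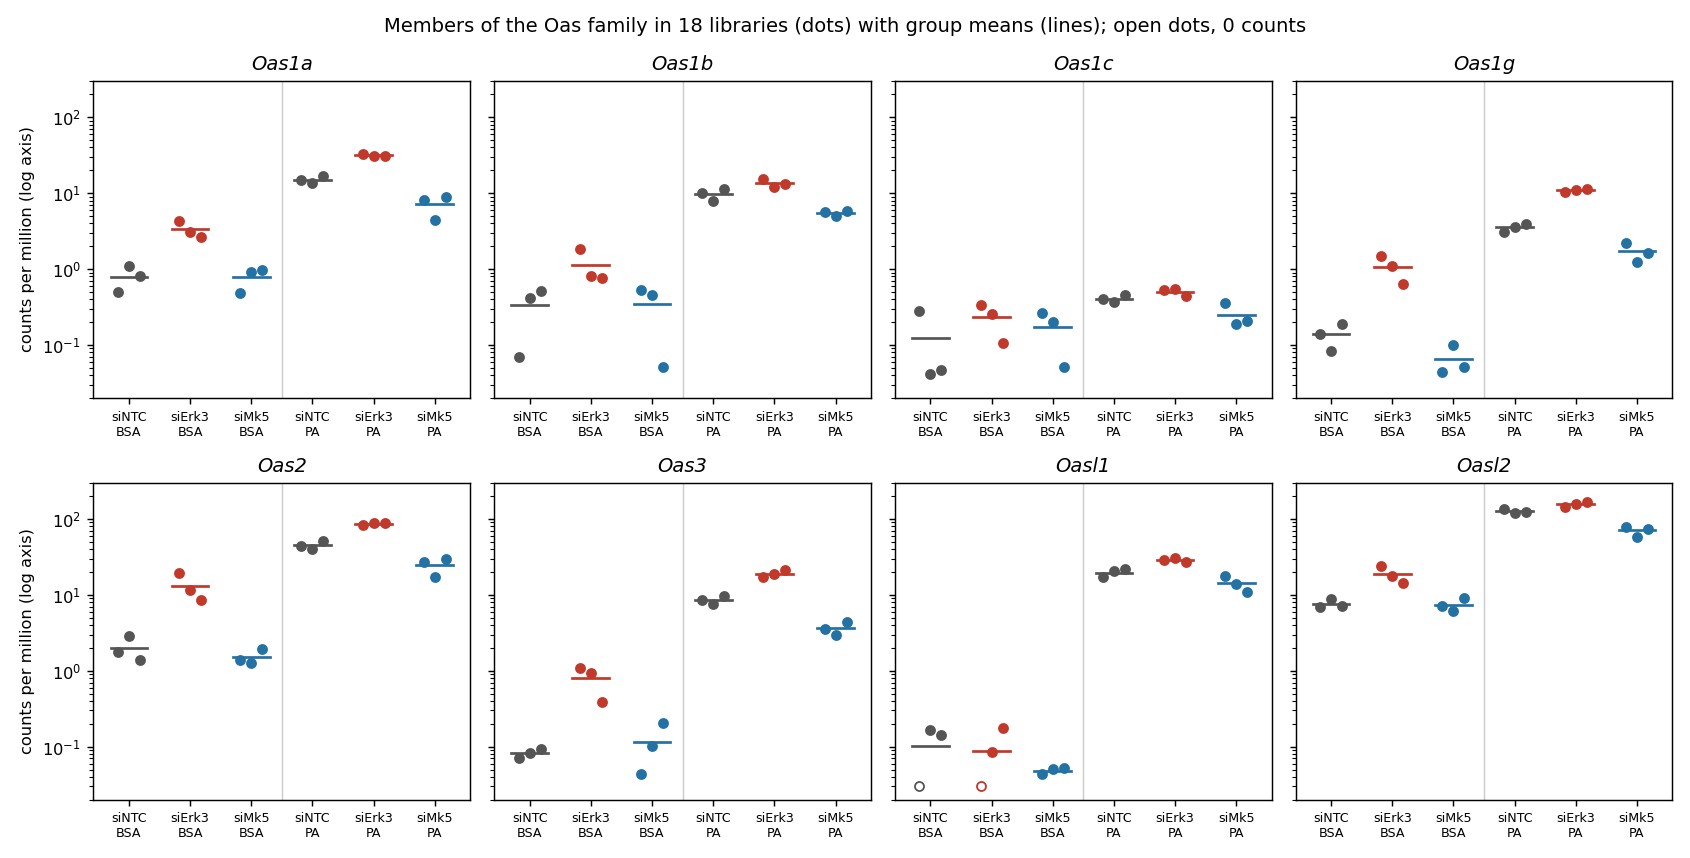
CPM (log axis) of the 8 Oas family members in each of 18 libraries (dots) by group, with group means (lines); open dots at the bottom are libraries with 0 counts. Every member but Oas1c lies higher in PA than in BSA in each library of the same siRNA, and siErk3 lies above siNTC in BSA for 6 members but not for Oas1c and Oasl1.

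Erk3 silencing in BSA raised 5 of the 8 members, namely Oas3, Oas1g, Oas2, Oas1a and Oasl2, between 2.39- and 8.80-fold. Of all 21772 genes tested, 0.588% were called higher in this comparison, where a call required an FDR (Benjamini-Hochberg adjusted p over all genes, edgeR's quasi-likelihood test) below 0.05 and a fold change above 1.3. The median log2 difference was 1.77 over the members and 0.02 over all genes. Oas2, a synthetase with units in tandem, read 1.76, 2.88 and 1.37 CPM in the 3 siNTC libraries and 19.6, 11.7 and 8.59 CPM in the siErk3 libraries. Every siErk3 library lay above every siNTC library, and the first siErk3 library stood highest. The log2 fold change of Oas2 was 2.67 ± 0.28 (SE, FDR 6.97e-07). Oas3, which makes the longest protein of the synthetases, was nearly silent in siNTC, with 1, 2 and 2 counts, and reached 26, 22 and 11 counts with siErk3. Its log2 fold change was 3.14 ± 0.57 (FDR 0.0015), and the pooled counts of 59 and 5 gave a scaled ratio of 9.30 with a counting interval of 3.77 to 29.7. The groups were apart for this gene too, though the control level rests on single reads.

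Among the Oas1 genes in BSA, Oas1a read 0.492, 1.08 and 0.804 CPM in siNTC and 4.31, 3.08 and 2.61 CPM in siErk3. Oas1g stood at 0.140, 0.0833 and 0.189 CPM in siNTC and at 1.48, 1.10 and 0.644 CPM in siErk3. Neither pair of groups overlapped. The log2 fold changes were 1.97 ± 0.30 for Oas1a (FDR 0.000147) and 2.91 ± 0.44 for Oas1g (FDR 0.000134), and the 4 Oas1 members counted as a single feature gave 1.98 ± 0.25 (FDR 1.21e-05). Oas1b, whose protein lacks synthetase activity, had 0.0702, 0.417 and 0.520 CPM in siNTC and 1.86, 0.801 and 0.751 CPM in siErk3. These groups were also apart, but the difference of 1.58 ± 0.46 did not pass the test (FDR 0.102) and did so with DESeq2 (FDR 0.0250).

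Oasl2 had the highest CPM of the members in BSA, not scaled to gene length, and the smallest fold change of those that rose. It read 6.95, 8.75 and 7.19 CPM in siNTC and 23.9, 17.5 and 14.4 CPM in siErk3, with a log2 fold change of 1.26 ± 0.16 (FDR 8.55e-06). Oasl1 had 0, 4 and 3 counts in siNTC and 0, 2 and 5 counts in siErk3. With 7 pooled counts in each group the scaled ratio was 0.788 and its counting interval ran from 0.236 to 2.63, so at this depth a rise as large as that of Oas2 lies outside the interval, whereas one of the size of Oasl2 does not. Oas1c, with 6 pooled counts in siNTC and 17 in siErk3, gave a ratio of 2.23 (interval 0.840 to 6.92) and FDR 0.602. Groups were apart for 6 of the 8 members, all higher in siErk3, against 11.5% of all genes. In siErk3 BSA the first library was the highest for 7 members and the third the lowest for 7, so the members shared their spread as well as their rise; without any single library the number of members called remained 5.

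With PA, Erk3 silencing again raised 5 members, Oas1g, Oas3, Oas1a, Oas2 and Oasl1, against 0.432% of all genes called higher. The fold changes of these 5 ran from 1.46 to 3.08 and started from far higher control levels. Oas1g read 3.06, 3.60 and 3.94 CPM in siNTC PA and 10.2, 11.1 and 11.3 CPM in siErk3 PA. Its log2 fold change was 1.62 ± 0.15 (FDR 2.27e-08), the largest among the members. Oas3 read 8.55, 7.52 and 9.55 CPM in siNTC PA and 17.1, 19 and 21.2 CPM in siErk3 PA, a log2 difference of 1.16 ± 0.12 (FDR 3.44e-07). For both genes the siErk3 libraries were all above the siNTC libraries and close to each other.

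Oas1a went from 15.1, 13.5 and 16.6 CPM to 32.5, 31.3 and 31.1 CPM, with a log2 fold change of 1.07 ± 0.12 (FDR 2.49e-06). Oas2 went from 44.4, 40.5 and 50.8 CPM to 83.7, 87.5 and 87.2 CPM (0.93 ± 0.15, FDR 0.000238). The call of Oas2 was lost with DESeq2 (FDR 0.0935). Oasl1, the translational repressor of Irf7, read 17, 20.5 and 21.6 CPM in siNTC PA and 28.6, 30.2 and 27.2 CPM in siErk3 PA. Its log2 difference of 0.55 ± 0.11 (FDR 0.0058) did not pass without the first siNTC PA library (FDR 0.0708) or the second siErk3 PA library (FDR 0.0742). Oasl2 read 133.4, 119.8 and 124.3 CPM against 143.4, 159.6 and 166.4 CPM. The groups of Oasl2 did not overlap, but its log2 difference of 0.31 ± 0.10 did not pass the test (FDR 0.176), nor did those of Oas1b (0.47 ± 0.15, FDR 0.209) and Oas1c (0.32 ± 0.43, FDR 0.924). Groups were apart for 7 of the 8 members, all higher in siErk3, against 6.30% of all genes.

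**Figure D2:**
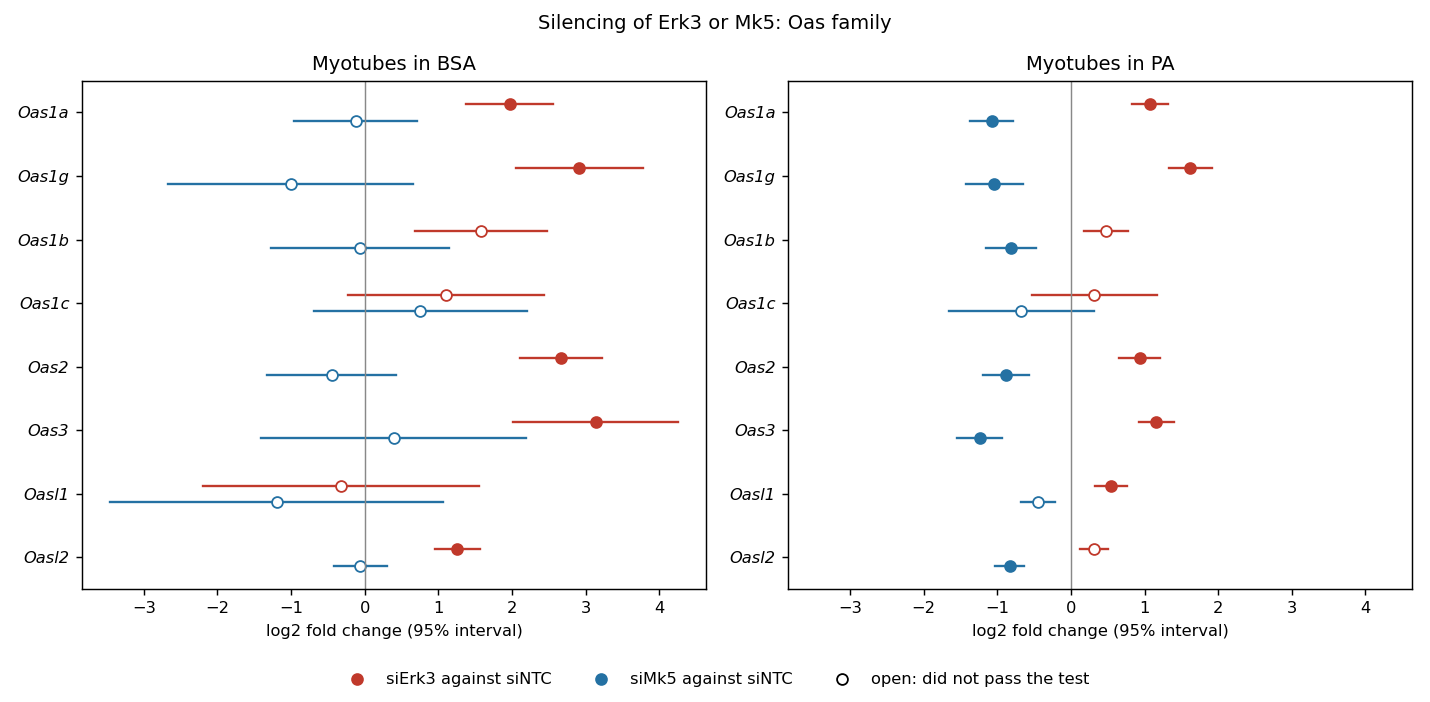
Log2 fold change with its 95% interval for the 8 members, siErk3 (red) and siMk5 (blue) against siNTC, in BSA (left) and in PA (right); filled dots passed the test. Red dots are filled for 5 members in each medium, and blue dots for 0 members in BSA and 6 in PA, all below 0.

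Mk5 silencing left no member past the test in BSA and lowered 6 in PA. In BSA, 0 of the 8 members were called by edgeR or DESeq2, 0 had an unadjusted p below 0.05, and the groups of all 8 overlapped; 0.0643% of all genes were called in either direction. Oasl2, the best counted member, read 6.95, 8.75 and 7.19 CPM in siNTC and 7.15, 6.19 and 8.98 CPM in siMk5. Its fold change of 0.959 had a 95% interval of 0.746 to 1.23. For Oas1a the interval was 0.516 to 1.64 around 0.921, and for Oas2 it was 0.399 to 1.35 around 0.733. The other 5 members had 3 to 22 pooled counts per group in these libraries. Their 95% intervals of the fold change reached down to between 0.0912 (Oasl1) and 0.619 (Oas1c) and up to between 1.58 (Oas1g) and 4.59 (Oas1c). Changes within the interval of each member are therefore not excluded.

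In PA, Oas3, Oas1a, Oas1g, Oas2, Oasl2 and Oas1b were lower with siMk5, against 0.491% of all genes called lower. The median log2 difference was -0.85 over the 8 members and 0.00 over all genes. Oas3 read 3.51, 2.94 and 4.44 CPM in siMk5 PA, and its siNTC PA values given above all lay higher. It fell by 1.24 ± 0.15 on the log2 scale (FDR 4.37e-06). Oas1a read 8.05, 4.47 and 8.93 CPM in siMk5 PA and fell by 1.08 ± 0.15 (FDR 2.78e-05). Oas1g read 2.20, 1.26 and 1.65 CPM and fell by 1.04 ± 0.20 (FDR 0.00273), a call lost without the second siMk5 PA library (FDR 0.0704). In all 3 genes the groups were apart.

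Oas2 in siMk5 PA read 26.7, 17.1 and 30.0 CPM and fell by 0.88 ± 0.16 (FDR 0.00142), which did not pass with DESeq2 (FDR 0.211). Oasl2 read 79.4, 58.3 and 74.7 CPM and fell by 0.83 ± 0.10 (FDR 2.98e-06). Oas1b went from 9.94, 7.84 and 11.3 CPM in siNTC PA to 5.71, 4.94 and 5.83 CPM in siMk5 PA, a fall of 0.82 ± 0.17 (FDR 0.0104). The call of Oas1b was lost with DESeq2 (FDR 0.401), without the third siNTC PA library (FDR 0.0981) and without the second siMk5 PA library (FDR 0.118). Oasl1 read 17.8, 14 and 11 CPM, overlapped with siNTC PA and did not pass (-0.45 ± 0.12, FDR 0.0758), but passed without the first siMk5 PA library (FDR 0.00187) or the first siNTC PA library (FDR 0.0225). Oas1c had 16 pooled counts against 26 (FDR 0.914). Groups were apart for 7 members, all lower in siMk5, against 6.09% of all genes. The second siMk5 PA library was the lowest for 7 of the 8 members, and without it 4 members were called.

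Set directly against each other, the 2 silenced states differed in both media. In BSA 5 members were higher in siErk3 than in siMk5, against 0.482% of all genes, with log2 differences of 3.92 ± 0.51 for Oas1g, 3.11 ± 0.30 for Oas2, 2.74 ± 0.53 for Oas3, 2.09 ± 0.30 for Oas1a and 1.32 ± 0.16 for Oasl2. The FDR of these 5 was at most 0.00358, and that of Oas3 rose to 0.0553 without the first siMk5 BSA library. In PA 7 members were higher, against 0.854% of all genes, and Oas1c was not called (0.99 ± 0.48, FDR 0.479). The log2 differences of the 7 ran from 1.00 ± 0.11 for Oasl1 to 2.66 ± 0.17 for Oas1g, with an FDR of at most 2.84e-06. Groups were apart for all 8 members in PA, against 7.46% of all genes. Both silencing contrasts use the siNTC libraries as control, and this direct one shares its libraries with both, so none is separate evidence of the others.

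PA raised every member in siNTC and siErk3 myotubes, and all but Oas1c in siMk5 myotubes. Of all genes, 15.5%, 15.8% and 15.1% were called higher with PA in siNTC, siErk3 and siMk5. The median log2 difference over the members was 4.55 in siNTC, 3.31 in siErk3 and 3.97 in siMk5, against -0.03, -0.01 and -0.01 over all genes. Oasl1 showed the largest rise: from 0 to 4 counts per library in siNTC BSA it went to 377, 449 and 428 counts in siNTC PA. The ratio of the scaled pooled counts was 166 (counting interval 80.5 to 415), and the fitted log2 difference was 7.31 ± 0.29 (FDR 2.16e-19). In siErk3 and siMk5 the fitted differences of Oasl1 were 8.19 ± 0.26 and 8.06 ± 0.35, with 7 and 3 pooled counts in BSA behind them. Oas3 followed with a pooled ratio of 101 (interval 43.0 to 312) in siNTC and fitted log2 differences of 6.57 ± 0.33, 4.59 ± 0.18 and 4.93 ± 0.37 in siNTC, siErk3 and siMk5. Oasl1 and Oas3 started from 7 and 5 pooled counts in siNTC BSA, but a low start did not go with a large rise in every member, since Oas1c started from 6 and rose least.

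Another 4 members rose by similar amounts with PA in siNTC, by 4.15 ± 0.23 for Oas1a, 4.65 ± 0.35 for Oas1g, 4.69 ± 0.30 for Oas1b and 4.45 ± 0.24 for Oas2 on the log2 scale. Oasl2 rose by 4.02 ± 0.13 from the highest starting level. In siErk3 the rises were 3.26 ± 0.15 for Oas1a, 3.36 ± 0.18 for Oas1g, 3.58 ± 0.21 for Oas1b, 2.71 ± 0.16 for Oas2 and 3.08 ± 0.11 for Oasl2. In siMk5 they were 3.19 ± 0.26, 4.61 ± 0.46, 3.93 ± 0.33, 4.02 ± 0.27 and 3.25 ± 0.14 in the same order of genes. The FDR of all these rises was at most 7.08e-10. Oas1c stayed low throughout, with 1 to 8 counts per library in BSA and 4 to 15 in PA. Its differences were 1.93 ± 0.62 in siNTC (FDR 0.011), 1.14 ± 0.47 in siErk3 (FDR 0.0446) and 0.51 ± 0.60 in siMk5 (FDR 0.54). The siErk3 call was lost with DESeq2 (FDR 0.112) and without any of 5 single libraries (both PA and BSA, all but the first siErk3 BSA library; FDR 0.0542 to 0.227), and the siNTC call without the second or the third siNTC BSA library (FDR 0.0893 and 0.0715). Mki67, Top2a, Ccnb1 and Pax7 of the 5 myoblast and cycling markers were called lower with PA in all 3 siRNA groups, and Myf5 was not called. Of the 8 myotube markers, Myog and Myh8 were called lower in all 3 and Ckm in siNTC. Mean Des went up without a call, from 2012 to 2174 CPM in siNTC, 2035 to 2235 in siErk3 and 1947 to 2171 in siMk5. Of all genes, 30.6%, 32.1% and 29.7% were called in either direction in siNTC, siErk3 and siMk5. The part of these markers in the rise of the family was not tested.

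**Figure D3:**
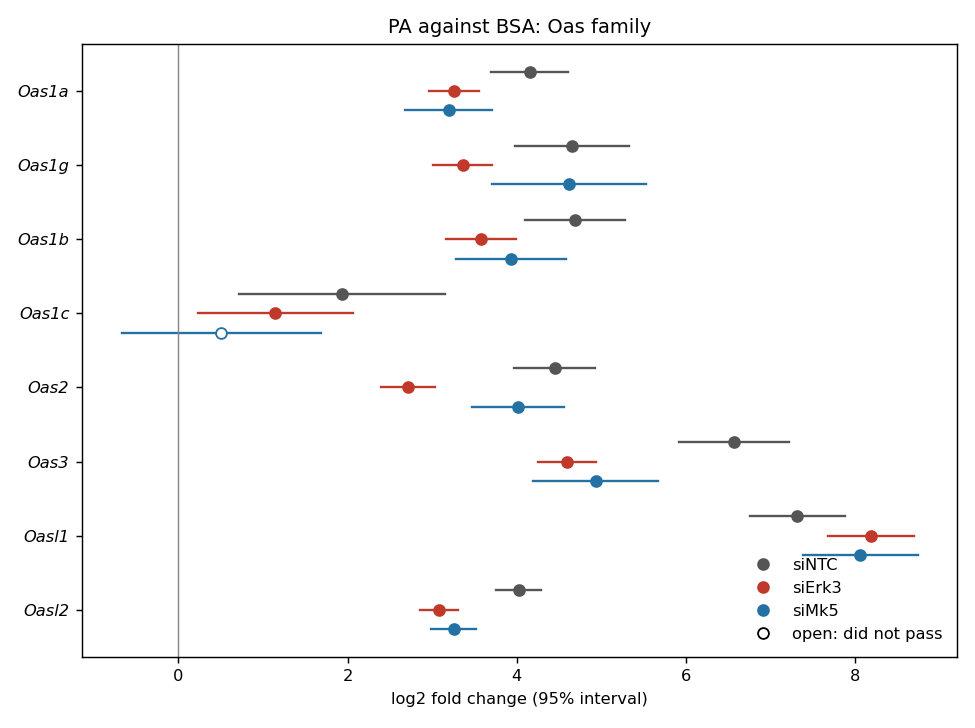
Log2 fold change of PA against BSA with its 95% interval for the 8 members in siNTC (grey), siErk3 (red) and siMk5 (blue) myotubes; filled dots passed the test. Oasl1 lies farthest right in each siRNA group, between 7.31 and 8.19, and Oas1c lies nearest to 0.

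Whether silencing acted differently in the 2 media was tested as an interaction. For siErk3, 2 of the 8 members were called, both with a smaller log2 fold change in PA than in BSA, against 0.0276% of all genes called in that direction. In CPM the means of siNTC and siErk3 lay farther apart in PA. They were 2.00 and 13.3 in BSA and 45.2 and 86.1 in PA for Oas2, and 7.63 and 18.6 in BSA and 125.8 and 156.5 in PA for Oasl2. For Oas2 the silencing effect was lower by 1.73 ± 0.33 on the log2 scale in PA (FDR 0.0443), and for Oasl2 by 0.94 ± 0.18 (FDR 0.0493). Both calls sat close to the threshold and were lost without any single one of 9 of the 12 libraries, namely the 3 siNTC BSA, the 3 siNTC PA, the first and second siErk3 BSA and the second siErk3 PA libraries, with FDR values from 0.0546 to 0.312. The estimates kept their sign without each library, between -2.17 and -1.36 for Oas2 and between -1.11 and -0.73 for Oasl2. Interaction estimates of Oas1a, Oas1b, Oas1g and Oas3 were -0.89 ± 0.34, -1.11 ± 0.49, -1.29 ± 0.51 and -1.98 ± 0.63, each with an unadjusted p below 0.05 and none past the FDR (0.53 to 0.749). For siMk5, edgeR and DESeq2 called 0 members, although 0.211% of all genes were called by edgeR; 2 members, Oasl2 (-0.77 ± 0.21, FDR 0.176) and Oas1a (-0.96 ± 0.46, FDR 0.665), had an unadjusted p below 0.05. The fall of 6 members in PA and of 0 in BSA with siMk5 was therefore not shown to differ between the media by either tool as fitted here; Oasl2 alone passed when only the compared libraries were fitted (-0.77, FDR 0.0376) or with no filter on low counts (-0.77, FDR 1.91e-08).

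The make-up of the family also differed between groups. Per kilobase, Oasl2 gave 46.8% to 55.4% of the summed level in the siNTC BSA libraries and 30.5% to 35.3% in siErk3 BSA. Oas2 gave 13.4% to 22% in siNTC BSA and 30.2% to 35.8% in siErk3 BSA, so that Oas2 and Oasl2 stood about level there (2.98 ± 1.27 and 2.92 ± 0.762 CPM per kb). Oasl1 gave 0% to 2.37% of the sum in any BSA library and 12% to 22.2% in PA. In siNTC PA the order per kilobase was Oasl2 (19.7 ± 1.09 CPM per kb), Oas2 (10.2 ± 1.17), Oas1a (7.98 ± 0.841), Oasl1 (7.55 ± 0.932), Oas1b (4.86 ± 0.867), Oas1g (1.51 ± 0.190), Oas3 (1.21 ± 0.143) and Oas1c (0.170 ± 0.0187). Oas1a and Oasl1, and Oas1g and Oas3, were neighbours in this order whose libraries overlapped; the shares are a description, as a rise of 1 member lowers the shares of all others.

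**Figure D4:**
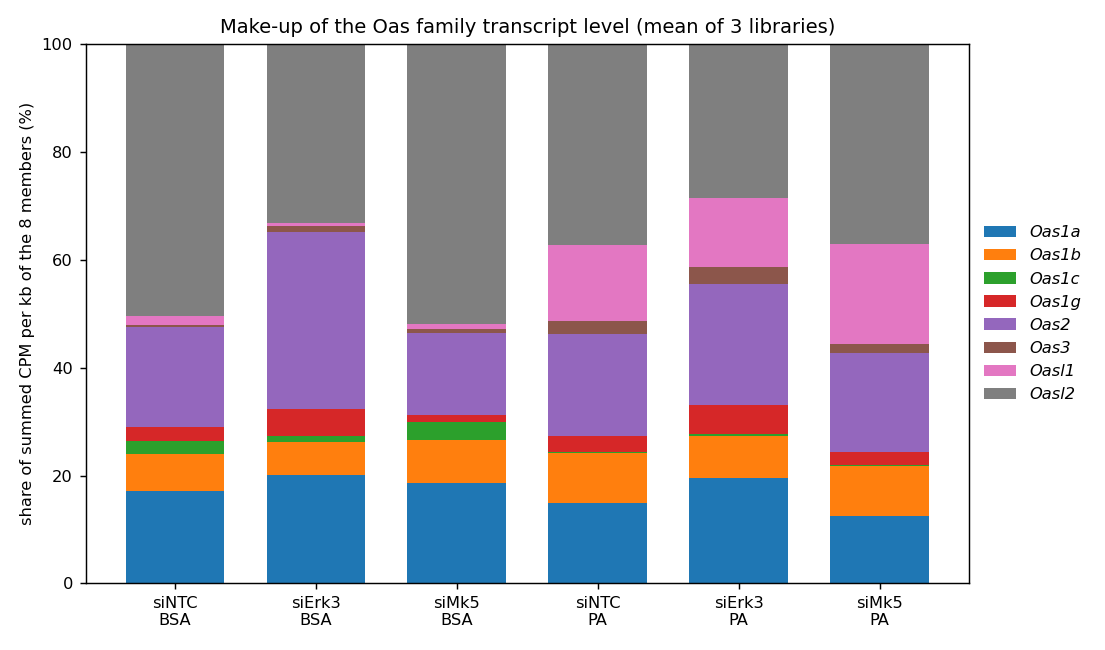
Share of each member in the summed CPM per kilobase of exon of the 8 members, as the mean of the 3 libraries of each group (bars stacked to 100%). Oasl2 is the largest part or level with Oas2 in each group, and Oasl1 holds 0% to 2.37% in BSA libraries and 12% to 22.2% in PA.

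The near-identical pair Oas1a and Oas1g did not keep a fixed ratio. Oas1g counts divided by Oas1a counts were 0.203, 0.268 and 0.237 in siNTC PA, 0.315, 0.354 and 0.362 in siErk3 PA and 0.274, 0.281 and 0.185 in siMk5 PA. The siErk3 PA libraries thus lay above all others in PA, while siNTC and siMk5 overlapped. In BSA the ratio of pooled counts was 0.160 in siNTC, 0.319 in siErk3 and 0.0833 in siMk5, from 8, 79 and 4 Oas1g counts. Read pairs shared by the 2 genes would pull the ratio toward a common value, and how many pairs were shared cannot be read from the counts. Counted as a single feature, the 4 Oas1 members rose by 0.98 ± 0.11 with siErk3 in PA (FDR 2.69e-06) and fell by 0.97 ± 0.13 with siMk5 in PA (FDR 1.25e-05).

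The 3 genes listed for their bearing on 2-5A were called with PA in all 3 siRNA groups. Of all genes, 30.6%, 32.1% and 29.7% were called with PA in either direction in siNTC, siErk3 and siMk5. Abce1, a ribosome recycling factor, read 296.4, 279.7 and 286.5 CPM in siNTC BSA and 414.2, 409.9 and 421.1 CPM in siNTC PA. It rose by 0.53 ± 0.04 on the log2 scale in siNTC (FDR 2.93e-12), 0.47 ± 0.04 in siErk3 and 0.56 ± 0.04 in siMk5. Of the 2 phosphodiesterases of this list that can degrade 2-5A, Pde12 was called higher and Akap7 lower with PA in all 3 siRNA groups. None of these 3 genes was called in any silencing comparison. Calls with silencing were rare among all genes, with 0.588% higher for siErk3 in BSA and 0.491% lower for siMk5 in PA. The lack of a call in 3 genes therefore says little about this list.

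The wider pathway moved with the family in part. A list of 31 genes, of which 24 were tested, held the 2-5A genes above, RNA sensors, interferons, their receptors and kinases, transcription factors and feedback inhibitors. In siErk3 BSA 8 of the 24 were called higher and 0 lower, among them Usp18, an inhibitor of interferon receptor signalling (2.31 ± 0.30, FDR 1.44e-05), and Irf7, a factor that drives interferon genes (1.52 ± 0.23, FDR 0.000125). In siErk3 PA 3 were called, Ifih1 (an RNA sensor, 0.49 ± 0.11, FDR 0.021), Zbp1 (a nucleic acid sensor, 0.42 ± 0.10, FDR 0.0271) and Usp18 (0.41 ± 0.10, FDR 0.045). In siMk5 BSA edgeR called 0 of the 24, and 0 had an unadjusted p below 0.05. In siMk5 PA 10 were lower and 0 higher, led by Usp18 (-1.06 ± 0.11, FDR 3.72e-07) and Eif2ak2, an RNA-activated kinase (-0.58 ± 0.06, FDR 5.01e-07). Between siErk3 and siMk5, 6 were higher in siErk3 in BSA, led by Usp18 (2.28 ± 0.29) and Irf7 (1.40 ± 0.22), and 12 in PA, led by Usp18 (1.47 ± 0.11) and Zbp1 (1.37 ± 0.11). Of all genes, 0.588% were called higher in siErk3 BSA and 0.432% in siErk3 PA, each against siNTC. For siMk5 against siNTC, 0.0643% were called in either direction in BSA and 0.491% lower in PA. The shares higher in siErk3 than in siMk5 were 0.482% in BSA and 0.854% in PA.

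With PA, 17 of the 24 pathway genes were called higher and 1 lower in siNTC and in siErk3, and 13 higher and 1 lower in siMk5. Of all genes, 15.5%, 15.8% and 15.1% were called higher with PA in siNTC, siErk3 and siMk5. Stat2, part of the factor that binds the ISRE, rose by 2.32 ± 0.07, 1.99 ± 0.07 and 1.70 ± 0.07, and Usp18 by 5.82 ± 0.20, 3.92 ± 0.14 and 4.73 ± 0.22 in siNTC, siErk3 and siMk5 (log2). The interaction called Usp18 for siErk3 (-1.89 ± 0.32, FDR 0.0407), in the same direction as Oas2 and Oasl2. No gene was called in this interaction with edgeR's own expression filter or without any single one of 5 libraries (the first and the third siNTC BSA, the first and the second siErk3 BSA and the second siErk3 PA), so the call of Usp18 was lost there as well. For siMk5 the interaction called 4, led by Eif2ak2 (-0.64 ± 0.10, FDR 0.000819), and Stat2 (-0.61 ± 0.10, FDR 0.00314), but 0 members of the Oas family. It called 0.211% of all genes in either direction. Interferon transcripts themselves were near the limit of counting. Ifnb1 had 0 counts in all 9 BSA libraries, 1, 2 and 4 in siNTC PA, 5, 7 and 5 in siErk3 PA and 1, 1 and 2 in siMk5 PA, and passed the test for PA in siNTC (FDR 0.0182) and siErk3 (FDR 0.000447). The 8 interferon genes of the list together had 2 to 3 counts per BSA group and 5 to 20 per PA group.

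Within 100 kb of either cluster 26 other genes are annotated, and 8 of them were counted often enough to test. None of the 8 was called by edgeR in any of the 6 comparisons between siRNAs or in the 2 interactions, but the precision was low. Beside the Oas1 to Oas3 cluster only Rasal1 and Rph3a could be tested, and with siErk3 in BSA their log2 differences were 1.69 ± 1.34 and 1.67 ± 1.39, with errors too large to tell them from 0 or from the members' median of 1.77. With PA, 2 of the 8 were called in siNTC, 3 in siErk3 and 4 in siMk5, against 30.6%, 32.1% and 29.7% of all genes in either direction. Rph3a was higher with PA in each, by 3.59 ± 1.10, 2.20 ± 0.76 and 3.28 ± 1.15 on the log2 scale (FDR at most 0.0199). The other 4 annotated Oas1 genes, Oas1d, Oas1e, Oas1f and Oas1h, had 0 to 2 counts in every library. Mapkapk5, the gene that siMk5 targets, lies on the same chromosome 603386 bases beyond the Oas1 to Oas3 cluster.

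Across the 18 libraries the members rose and fell together. Each member was set against the mean of the other 7 on standardized log2 CPM, and Pearson's r was 0.989 for Oas3, 0.986 for Oasl2, 0.979 for Oas1a, 0.972 for Oas2, 0.971 for Oas1g, 0.960 for Oas1b, 0.901 for Oasl1 and 0.749 for Oas1c. Among 12727 genes with a mean of at least 1 CPM, those most like the mean of the 8 members were Xaf1 (r = 0.993), Gm43197 (0.992), Gbp7 (0.992), Apol9a (0.991) and Rsad2 (0.991). These r values describe 18 libraries that fall into PA and BSA sets, and values within a medium were not computed.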

How the data were processed

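The members, the gene lists and the tests were chosen with earlier results of these data known. Per the labels, stranded poly(A) libraries were made from total RNA and sequenced in pairs. Per the file headers, the authors deposited counts of read pairs per gene from featureCounts 2.0.0 (GRCm39, Ensembl release 105, reverse strand, primary alignments, mapping quality of at least 3), not normalized. The study's methods name STAR for alignment and say that duplicates were marked. The submitters' processing notes name mm10, whereas coordinates in the counts follow GRCm39. A deposited table of the authors' own comparisons was not used. Gene symbols came from GENCODE M39 and matched 54749 of 55414 identifiers.

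The 21772 genes that reached 10 counts over all libraries were scaled by TMM and fitted with edgeR 4.0.16 (R 4.3.3) in 1 model with a coefficient for each of 6 groups, and each difference was tested by the quasi-likelihood test. A call required an FDR below 0.05 and a fold change above 1.3, as in the study, which used DESeq2; DESeq2 1.42.0 was run as an alternative. Levels are CPM on TMM-scaled library sizes. The 95% intervals of fitted folds rest on the SE and the normal distribution. Counting intervals are exact binomial (95%) and cover counting error only; 3 counts were taken as the floor. In simulated counts, 200 genes with a mean above 1 CPM over all libraries were changed by 1 on the log2 scale. The fit recovered 193 for siErk3 against siNTC in BSA, with 7 false calls. All groups had the same simulated base level. The recovery therefore does not cover members near the floor in BSA, such as Oas3 with a mean of 0.0827 CPM in siNTC. No pair of replicates agreed within sampling noise. Named genes were the 8 members, the silenced genes, Abce1, the 2 pathway genes with the smallest FDR in each comparison and the 5 genes most like the family; other genes named were chosen after their values were seen. Exact permutation of 3 against 3 libraries reaches 0.1 at best and was not used. ISRE and gamma-activated site letters were searched on both strands of GRCm39. Some genes of the pathway are not reported here and were left out of the list counts.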

Additional observations from a re-analysis of the deposited data

Results flagged for a closer look

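Oas2 and Oasl2 were flagged because the effect of Erk3 silencing differed between the 2 media by the interaction test. The log2 difference was -1.73 for Oas2 (FDR 0.0443, effect 2.67 in BSA and 0.93 in PA) and -0.94 for Oasl2 (FDR 0.0493, effect 1.26 in BSA and 0.31 in PA). In the 3 siErk3 BSA libraries, Oas2 read 19.6, 11.7 and 8.59 CPM, and both calls rest on FDR values close to the threshold.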

How the results depend on the processing

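For comparisons between siRNAs within a medium, the number of members called stayed within 1.5 times its value under every alternative. Without 1 library it was 5 for siErk3 against siNTC in BSA, 4 to 5 in PA, 0 for siMk5 in BSA and 4 to 7 in PA, 4 to 5 for siErk3 against siMk5 in BSA and 7 in PA, and 7 to 8, 7 to 8 and 7 for PA in siNTC, siErk3 and siMk5. With the 4 Oas1 genes summed, PA called 5 of 5 features in siNTC and siErk3, fewer because there were fewer features. The siErk3 interaction, 2 members, gave 1 with DESeq2, 0 with DESeq2 size factors, 0 with edgeR's own expression filter, 0 with only the compared libraries, 3 with no filter, and 0 to 2 without 1 library. The siMk5 interaction, 0 members, gave 1 with no filter and 1 with only the compared libraries, Oasl2 in both, and 0 without any 1 library; the cause of these moves was not tested.

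Deviations from the group mean were correlated between same-numbered libraries over 15 pairs of groups. The mean r was -0.0042, but single values ran from -0.67 to 0.58. In 0 pairs was every r over 0.1, and in 2 pairs every library matched its own number best. Whether the numbers pair libraries was therefore not settled. With the replicate block the members called were 5 and 5 for siErk3 against siNTC in BSA and PA, and 0 and 6 for siMk5. They were 5 and 7 for siErk3 against siMk5, and 8, 8 and 7 for PA in siNTC, siErk3 and siMk5. For the interactions they were 2 and 0, and all these counts were as without the block.

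Estimates near 0 or from few counts changed sign, among them 0.87 for Oasl1 in siErk3 against siMk5 in BSA (7 and 3 pooled counts). Oas1g in the siMk5 interaction was 0.022 with DESeq2 and -0.37 to 0.37 without 1 library. Without 1 library, siMk5 against siNTC in BSA ran from -0.31 to 0.19 for Oas1a, -0.53 to 0.40 for Oas1b, -0.25 to 0.82 for Oas3 and -0.21 to 0.065 for Oasl2, siErk3 against siNTC in BSA from -1.36 to 0.20 for Oasl1, and siErk3 against siMk5 in BSA from -0.040 to 0.81 for Oas1c and -0.16 to 1.40 for Oasl1.

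Over all genes, the count called moved from 171 to 263 (FDR alone) for siErk3 in BSA, from 121 to 208 (no filter), 71 (only the compared libraries) and 186 (FDR alone) for siErk3 in PA, from 14 to 61 (no filter) for siMk5 in BSA, from 128 to 201 (no filter) for siErk3 against siMk5 in BSA, from 8 to 72 (no filter), 4 (DESeq2 size factors and only the compared libraries) and 0 (edgeR's filter) for the siErk3 interaction, and from 46 to 130 (no filter) for the siMk5 interaction. Without 1 library it fell to 113 for siErk3 in BSA (second siNTC BSA), ran from 6 to 25 for siMk5 in BSA, 0 to 24 for the siErk3 interaction and down to 22 for the siMk5 interaction. Depth limits Oasl1, Oas3, Oas1g and Oas1c in BSA, each with under 10 pooled counts in siNTC.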
